A study of Mus musculus with 12 samples.

Results

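A set of 10 genes of the macrophage lysosome and of lipid-laden macrophages were followed through mouse aorta: Trem2, Gpnmb, Cd68, Ctsb, Ctsd, Ctsk, Ctsl, Ctss, Ctsz and Fabp5. They were taken by name, as 10 of the 32245 gene symbols in the matrices, and all 10 had UMIs in every library. A UMI is a molecular identifier that counts 1 captured RNA molecule once. The levels were read in cells gated as macrophages by marker genes, of which none belongs to the 10, and were set against all other cells of the same library.

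The study describes all animals as male C57BL/6J mice without a working Apoe gene (ApoE-/-), which entered the diets at 8 weeks of age, 18 mice per group, for 24 weeks. Mice of the library labelled Healthy ate normal chow and were given saline. A high-fat diet (1% cholesterol, 10% fat) was fed to the remaining 3 groups, which were given saline (AS, the atherosclerosis model), methazolamide from week 13 to week 24 (MTZ-treated, begun once atherosclerosis was established), or methazolamide throughout (MTZ-preventive). Methazolamide (MTZ), a carbonic anhydrase inhibitor used against glaucoma, was given by gavage at 25 mg/kg every other day, and the sample labels spell its name methoxazolamide. Each library held the pooled aortas of 6 mice and each group had 1 library, so there was no replicate and no test was possible. The ranges in parentheses after values are exact 95% intervals that cover counting error only, not the spread between mice or libraries.

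The targeted gene went against its label in 1 library. Apoe, which carries lipid out of macrophages, is given as knocked out in all groups by the study and the sample labels. It was at 687 CPM (UMIs of a gene per 1e+06 UMIs of the summed cells) over all cells of the library labelled Healthy, while AS had 11.1 CPM, MTZ-treated 12.6 and MTZ-preventive 8.24. In the gated macrophages it reached 9685 CPM in that library and at most 19.9 CPM in the other 3. Every difference from the library labelled Healthy given here is therefore a difference from cells with Apoe RNA, and diet and the state of Apoe cannot be told apart in it.

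After limits on cell quality and removal of called doublets, 11121 cells of the library labelled Healthy remained, with 2160 of AS, 6796 of MTZ-treated and 14186 of MTZ-preventive. Their median depth was 1298 to 1894 UMIs per cell, and AS held the fewest UMIs in all, 3777323. Between 24 and 241 cell barcodes were shared by a pair of libraries, and none of them was a gated macrophage in both. A cell was gated as a macrophage when it held at least 3 of 10 macrophage markers and more of them than of any other class's markers. This gave 26 macrophages in the library labelled Healthy (0.234% of cells, 0.153 to 0.342), 66 in AS (3.06%, 2.37 to 3.87), 100 in MTZ-treated (1.47%, 1.20 to 1.79) and 15 in MTZ-preventive (0.106%, 0.0592 to 0.174).

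The gate itself sets the level of these markers, so it is no check of the label, and all 10 were detected among the gated cells of every library. The doublet step touched the macrophages unequally. It had called 14 of 40 gated macrophages in the library labelled Healthy, 2 of 68 in AS, 4 of 104 in MTZ-treated and 56 of 71 in MTZ-preventive (78.9%, 67.6 to 87.7). Over all cells, 9.87, 1.77, 5.77 and 13.1% were called in the same order of libraries. Of those 56 called cells, 26 held at most 1 marker of each other class, while some held as many as 5 markers of another class. Their median depth was 3421 UMIs, against 1451 in the 15 macrophages that were kept. Whether they are doublets was not tested. MTZ-preventive macrophages are therefore described with called doublets removed (15 cells) and kept (71 cells), and their comparison with AS rests on the larger set.

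Macrophages in an arterial plaque take up modified lipoproteins, break them down in lysosomes and store the cholesterol as lipid droplets, which turns them into foam cells. Lysosomes do this with acid hydrolases, among them the cathepsins: cathepsin D is an aspartic protease, while cathepsins B, K, L, S and Z are cysteine proteases. TREM2 is a lipid-sensing receptor of the cell surface that signals through the adaptor TYROBP, CD68 and GPNMB are heavily glycosylated membrane proteins of late endosomes and lysosomes, and FABP5 is a cytosolic fatty acid carrier. Many lysosomal genes are under the transcription factor TFEB and its relatives, which read a short DNA element named CLEAR.

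The stretch before the start of transcription was read for 8 of the 10 genes from RefSeq (GRCm38.p6), 250 bases each. The letters TCACGTGA of the CLEAR element were in the stretch of Ctsd alone, 1 of 8 genes (12.5%), against 0.908% of 26994 promoters. The E-box letters CACGTG, which also lie inside TCACGTGA, were in those of Ctsd and Ctsl, 25% against 6.86% of all promoters. The MITF letters TCATGTGA or TCACATGA were in none of the 8, against 0.985% of all. Both strands were searched. Of a list of other lysosomal genes, 4 of 23 with a promoter (17.4%) held TCACGTGA. The stretches of Ctsd and Ctsl are shown because they hold the letters, and those of Trem2 and Gpnmb as examples that hold none. Capitals mark the searched letters, and each sequence runs 5′ to 3′ towards the gene.
Ctsd (GRCm38.p6, chr7:142387828-142388077, minus strand): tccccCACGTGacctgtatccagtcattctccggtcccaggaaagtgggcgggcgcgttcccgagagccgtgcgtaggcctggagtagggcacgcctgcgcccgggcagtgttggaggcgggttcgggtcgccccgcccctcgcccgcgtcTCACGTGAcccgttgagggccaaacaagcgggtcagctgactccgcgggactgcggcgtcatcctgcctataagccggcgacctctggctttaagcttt
Ctsl (GRCm38.p6, chr13:64370521-64370770, minus strand): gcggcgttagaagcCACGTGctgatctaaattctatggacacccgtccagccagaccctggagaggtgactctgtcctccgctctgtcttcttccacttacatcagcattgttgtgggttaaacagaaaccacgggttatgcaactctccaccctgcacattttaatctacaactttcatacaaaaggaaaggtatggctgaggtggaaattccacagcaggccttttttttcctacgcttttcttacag
Trem2 (GRCm38.p6, chr17:48346151-48346400, plus strand): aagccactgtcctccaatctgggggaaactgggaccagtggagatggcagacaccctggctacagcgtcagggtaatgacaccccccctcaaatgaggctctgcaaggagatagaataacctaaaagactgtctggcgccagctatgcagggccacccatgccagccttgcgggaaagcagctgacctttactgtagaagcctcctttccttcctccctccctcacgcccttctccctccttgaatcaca
Gpnmb (GRCm38.p6, chr6:49036268-49036517, plus strand): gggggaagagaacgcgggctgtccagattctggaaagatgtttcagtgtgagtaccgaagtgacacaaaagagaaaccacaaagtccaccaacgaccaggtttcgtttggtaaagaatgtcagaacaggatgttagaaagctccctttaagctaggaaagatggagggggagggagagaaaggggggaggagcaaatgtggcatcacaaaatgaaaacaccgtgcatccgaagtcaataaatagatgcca
The Ctsd stretch was also rich in G and C, at 67.2% with 27 CpG steps, while the other 7 ranged from 43.2% to 58.8% with 0 to 7 CpG steps. A match of letters is a description of the sequence and was not set against any measure of binding.

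Trem2 (ENSMUSG00000023992), the lipid-sensing receptor, set macrophages apart from other cells in every library. In gated macrophages it was at 172 CPM (89.1 to 301) under the label Healthy, 1064 (908 to 1238) in AS, 864 (762 to 975) in MTZ-treated and 577 (342 to 912) in MTZ-preventive. Other cells had 1.01, 34.0, 8.77 and 1.37 CPM in the same order. AS was the highest macrophage level and the library labelled Healthy the lowest, and the intervals of AS and MTZ-treated overlapped, as did those of MTZ-treated and MTZ-preventive. The macrophage excess over other cells was 171-fold (79.2 to 347), 31.3-fold (24.7 to 39.9), 98.5-fold and 423-fold (230 to 745) in that order. Across the other classes of at least 20 cells, Trem2 spanned 0 to 3.69 CPM where the label is Healthy, and 11.2 CPM in neutrophils up to 53.1 CPM in smooth muscle cells in AS. The MTZ-preventive level with called doublets kept was 768 CPM, from 211 UMIs in 39 of 71 cells.

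Cd68 (ENSMUSG00000018774), the macrophage lysosomal glycoprotein, followed the same order of libraries with a narrower span. It was at 388 CPM (256 to 565) in macrophages labelled Healthy, 807 (673 to 961) in AS, 652 (564 to 749) in MTZ-treated and 513 (293 to 833) in MTZ-preventive. Neighbours in this order overlapped in their intervals. The level in other cells was 8.77 to 25.7 CPM, so macrophages stood 31.4-fold to 58.5-fold above them. Keeping called doublets put MTZ-preventive at 946 CPM, above AS at 803 CPM.

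Gpnmb (ENSMUSG00000029816), the glycoprotein of lipid-loaded lysosomes, had no UMI among the 26 macrophages labelled Healthy. This allows up to 43.1 CPM at 3 UMIs (53.0 CPM by the exact interval). AS macrophages had 301 CPM (221 to 401) and MTZ-treated macrophages 112 CPM (77.9 to 157), and 1 UMI was found in MTZ-preventive, 32.1 CPM (0.812 to 179). The AS interval lay above all others. Gpnmb was not a macrophage gene alone: fibroblasts carried 51.8, 75.6, 50.6 and 100 CPM in the 4 libraries, and in AS macrophages exceeded all other cells 7.79-fold. In MTZ-preventive with called doublets kept it was at 764 CPM, and all of its 210 UMIs came from 3 of 71 cells.

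Ctsb (ENSMUSG00000021939), a cysteine cathepsin with broad substrate range, was at 1423 CPM (1156 to 1732) in macrophages labelled Healthy, 5594 (5229 to 5978) in AS, 3183 (2985 to 3390) in MTZ-treated and 1507 (1107 to 2003) in MTZ-preventive. AS stood clear of the other 3, MTZ-treated came next, and the lowest pair overlapped. Other cells had 220 to 620 CPM, and the macrophage excess was 6.48-fold, 9.03-fold, 7.90-fold and 3.41-fold in the order of the libraries. MTZ-preventive with called doublets kept was at 4200 CPM, between MTZ-treated (3132) and AS (5388).

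Ctsd (ENSMUSG00000007891), the aspartic cathepsin, followed with 331 CPM (210 to 496), 1679 (1482 to 1895), 873 (771 to 985) and 641 (392 to 990) in the same order. The interval of AS lay above the other 3, while MTZ-preventive overlapped with MTZ-treated and with the library labelled Healthy. Keeping called doublets put MTZ-preventive at 1372 CPM (1237 to 1518), which overlapped AS (1595 CPM, 1408 to 1799) and lay above MTZ-treated (853 CPM). Its excess over other cells was 1.88-fold (1.19 to 2.82) in the library labelled Healthy and 2.81-fold to 4.83-fold in the rest. Adipocytes of the library labelled Healthy, at 355 CPM, were slightly above its macrophages.

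Ctsl (ENSMUSG00000021477), a cysteine cathepsin of most cell types, was below the fibroblast level in macrophages outside AS. Macrophages had 129 CPM (59.1 to 246) under the label Healthy, 1301 (1128 to 1493) in AS, 599 (515 to 693) in MTZ-treated and 256 (111 to 505) in MTZ-preventive. Fibroblasts had 1123, 969, 849 and 1106 CPM. Only in AS were macrophages above the fibroblasts, and this rested on 1 cell. That cell held 38.4% of the Ctsl UMIs of the AS macrophages. Without it their level was 888 CPM, and as a mean over cells 926 CPM, both below the fibroblasts. In the library labelled Healthy macrophages were at 0.353 times the level of all other cells (0.162 to 0.671). AS had a ratio of 2.01 (1.73 to 2.32), MTZ-treated one of 1.16 and MTZ-preventive one of 0.391, which became a small excess, 0.21 on the log2 scale, with called doublets kept.

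Ctss (ENSMUSG00000038642), the cathepsin that trims the invariant chain in antigen-presenting cells, was at 790 CPM (595 to 1029), 3057 (2788 to 3344), 2064 (1906 to 2233) and 1475 (1080 to 1967) in the 4 macrophage sets. These 4 levels had the order of Trem2, and only the intervals of MTZ-treated and MTZ-preventive overlapped. With called doublets kept, MTZ-preventive was at 2377 CPM (2198 to 2566), above MTZ-treated at 2012 CPM (1858 to 2175), and the order differed from that of Trem2. Macrophages exceeded other cells 9.35-fold, 29.4-fold, 71.0-fold and 52.2-fold. Among classes of at least 20 cells, the highest other class was B cells in the libraries labelled Healthy (221 CPM), MTZ-treated (146) and MTZ-preventive (178). In AS it was smooth muscle cells (190). Dendritic cells, at 12, 1, 6 and 11 cells in the 4 libraries, and the 11 B cells of AS were too few to be ranked.

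Ctsz (ENSMUSG00000016256), a cysteine carboxypeptidase, was level between AS and MTZ-treated. Its macrophage amounts were 474 CPM (326 to 666), 1045 (890 to 1218), 1075 (962 to 1199) and 705 (442 to 1068), and the intervals of AS, MTZ-treated and MTZ-preventive overlapped. The excess over other cells stayed between 3.55-fold and 5.97-fold. Fibroblasts were the highest other class of at least 20 cells in each library, at 247 to 330 CPM.

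Ctsk (ENSMUSG00000028111), a collagen-degrading cathepsin best known from osteoclasts, was at 551 CPM (441 to 681) in AS macrophages and nearly missing in the other 3 sets. The library labelled Healthy had no UMI in 26 cells, MTZ-treated had 19.9 CPM (7.28 to 43.2) from 6 UMIs, and MTZ-preventive had 1 UMI, or 29.1 CPM from 8 UMIs with called doublets kept. Fibroblasts had 209, 163, 218 and 128 CPM, so that AS alone showed a macrophage excess, 8.08-fold over all other cells. This excess was not spread over the AS macrophages, since 3 of them held 89.5% of the Ctsk UMIs. After thinning to 1000 UMIs per cell, 7.58% of AS macrophages (2.51 to 16.8) had a Ctsk UMI, against 16.0% of AS fibroblasts. In MTZ-treated the macrophages were at 0.217 times the level of other cells (0.0795 to 0.474).

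Fabp5 (ENSMUSG00000027533), the fatty acid carrier, had a higher level in MTZ-treated than in AS macrophages, and a lower one with looser limits on cells. It was at 28.7 CPM (3.48 to 104) in macrophages labelled Healthy, 288 (210 to 386) in AS, 476 (402 to 561) in MTZ-treated and 160 (52.0 to 374) in MTZ-preventive. The intervals of those 2 sets did not overlap. Endothelial cells had 381, 352, 278 and 405 CPM and exceeded the macrophages in all libraries but MTZ-treated. Adipocytes of the library labelled Healthy reached 568 CPM.

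**Figure D1:**
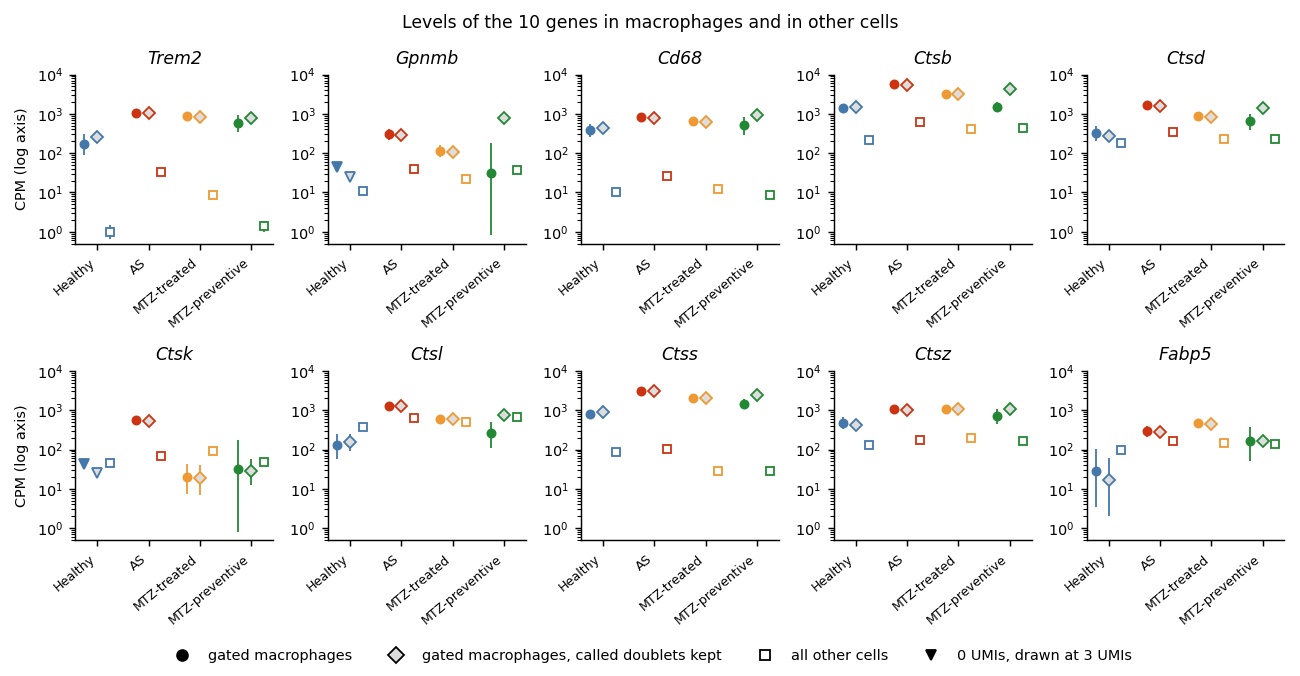
Level of each of the 10 genes in each library, in CPM on a log axis. Filled circles are gated macrophages, grey diamonds gated macrophages with called doublets kept, open squares all other cells, triangles levels of 0 UMIs drawn at 3 UMIs, and bars exact 95% Poisson intervals. Trem2, Cd68, Ctsb, Ctss and Ctsz in macrophages lie above all 4 other-cell squares, and AS is the highest filled circle for every gene but Ctsz and Fabp5.

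Counted over the genes, 5 of 10 were at least 2-fold higher in macrophages than in other cells in the library labelled Healthy, where 13.2% of all genes with enough UMIs were. The count was 9 of 10 in AS (13.6% of all genes), 8 of 10 in MTZ-treated (11.8%) and 6 of 10 in MTZ-preventive (12.4%), the last from 15 macrophages. With called doublets kept it was 7 in MTZ-preventive, for which no share of all genes was counted. The added gene was Gpnmb, with all of its 210 UMIs in 3 of 71 cells. Gpnmb was also among the 8 in MTZ-treated, where it lay below other cells without 1 macrophage (log2 ratio −1.05). The genes at least 2-fold lower in macrophages were Ctsl and Fabp5 in the library labelled Healthy (5.93% of all genes), Ctsk in MTZ-treated (17%) and Ctsl in MTZ-preventive (2.99%), and none in AS (13.6%). In 5 of 10 genes, Trem2, Cd68, Ctsb, Ctss and Ctsz, every macrophage level lay above every other-cell level over the 4 libraries. Of all 18026 genes, 3.06% did so. The macrophages held 23.3% of all UMIs of the 10 genes in AS and 11.1% in MTZ-treated, but 0.812% in the library labelled Healthy and 0.318% in MTZ-preventive. These shares leave out called doublets, 56 of 71 gated macrophages in MTZ-preventive and 2 of 68 in AS. In MTZ-preventive those 56 held 1107 UMIs of Ctsb and 607 of Ctss, against 47 and 46 in the 15 kept macrophages.

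**Figure D2:**
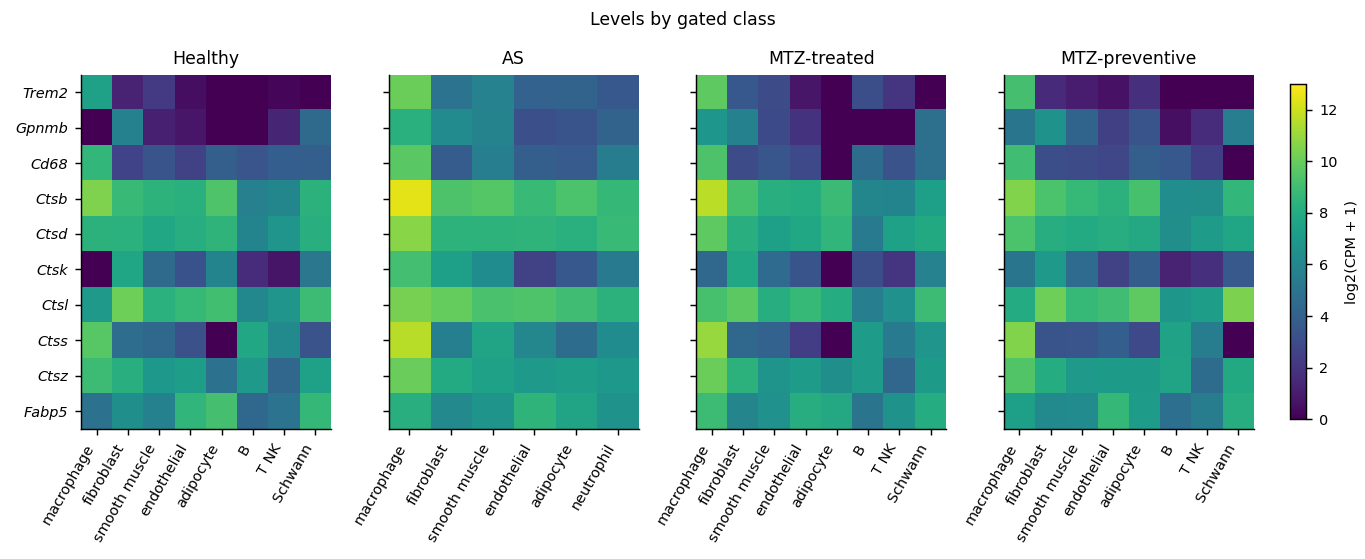
Level of the 10 genes, as log2(CPM + 1), in each gated class of at least 20 cells in each library. Trem2 and Cd68 are high in the macrophage class and low elsewhere, while Ctsl, Ctsk and Gpnmb are also seen in fibroblasts and Fabp5 in endothelial cells and adipocytes.

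The share of cells with a UMI was compared after thinning every cell to 1000 UMIs, since the libraries differed in depth. Trem2 was found in 7.69% (Healthy), 57.6% (AS), 42% (MTZ-treated) and 33.3% (MTZ-preventive) of macrophages, against 15.4, 69.7, 65 and 33.3% without thinning. In endothelial cells, which should lack it, the thinned share was 0.136, 1.26, 0 and 0.136%, at median depths of 2530, 1401.5, 1651.5 and 1951 UMIs against 2502.5, 1674, 2048 and 1451 in the macrophages. Ctsb was found in 80.8, 93.9, 76 and 46.7% of macrophages and also in 22.1 to 34.6% of endothelial cells. Gpnmb, in 18.2% of AS macrophages and 4% of MTZ-treated ones, was found in 0 to 0.613% of endothelial cells and 4.53 to 8.94% of fibroblasts. The MTZ-treated macrophages, with 4%, were not above the fibroblasts of their library, with 5.15%. No UMI of Gpnmb, Ctsk or Fabp5 was left among the 26 macrophages labelled Healthy, which allows a share of up to 11.5% at 3 counts of 26 (13.2% by the exact interval).

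The number of the 10 genes found per thinned macrophage had a median of 2, 5, 3 and 3 in the 4 libraries in the same order. The median was between 0 and 2 in the other classes counted, which were B, T/NK, endothelial, smooth muscle and adipocyte-marker cells, fibroblasts and neutrophils. Schwann and dendritic cells were not counted. No AS macrophage lacked all 10 genes, and some held 9. Among MTZ-preventive macrophages with called doublets kept, the shares were 33.8% for Trem2, 83.1% for Ctsb, 66.2% for Ctss and 53.5% for Ctsz. The macrophages labelled Healthy with called doublets kept had Trem2 in 17.5% and Ctsb in 75%.

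**Figure D3:**
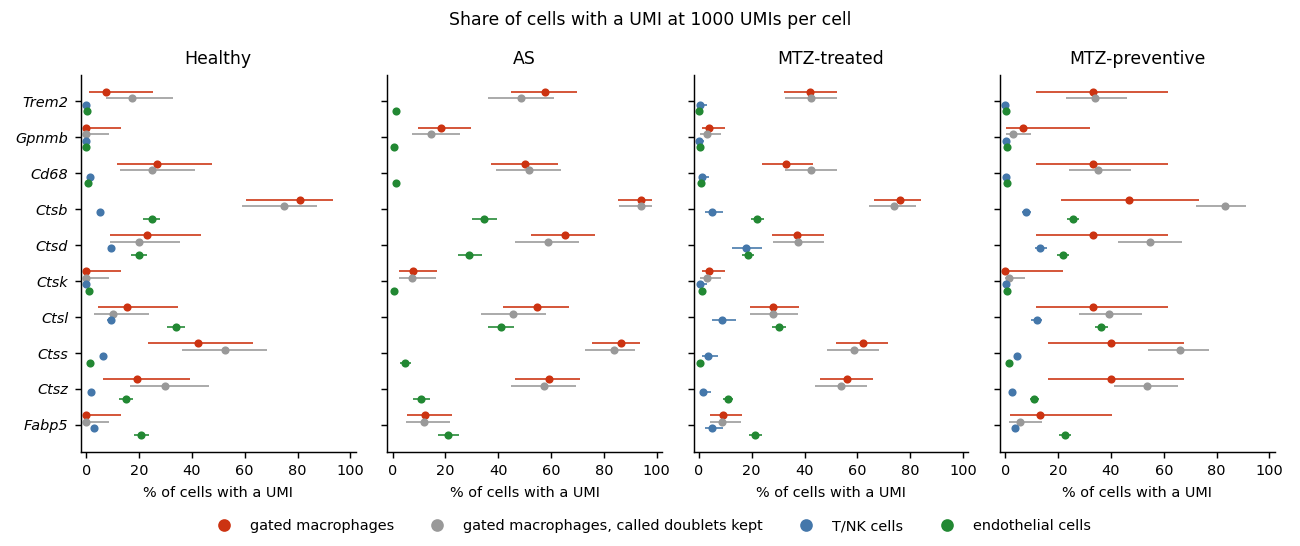
Share of cells with a UMI of each gene at 1000 UMIs per cell, in percent, in 1 panel per library. Points are macrophages, macrophages with called doublets kept, T/NK cells (not shown for AS, which had under 20) and endothelial cells, and bars exact 95% Clopper-Pearson intervals. Trem2 and Cd68 separate the macrophages from both other classes, while Ctsb, Ctsd, Ctsl and Fabp5 are found in endothelial cells too.

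The first comparison asked how macrophages of the AS model differ from those labelled Healthy. All 10 genes were at least 2-fold higher in AS macrophages, where 24.1% of the 3087 genes with enough UMIs were. Their median log2 ratio was 2.48 against 0.21 over all genes. The ratio was 6.17 (3.44 to 12.2) for Trem2, at least 6.99 for Gpnmb, 2.08 (1.36 to 3.28) for Cd68 and at least 12.8 for Ctsk. The bounds take the macrophages labelled Healthy at 3 UMIs over the group. Cathepsins spread widely: Ctsl was 10.1-fold higher (5.19 to 22.3), Ctsd 5.08-fold (3.31 to 8.16), Ctsb 3.93-fold (3.19 to 4.89), Ctss 3.87-fold (2.92 to 5.21) and Ctsz 2.20-fold (1.51 to 3.31). For Fabp5 the ratio of 10.0 (2.62 to 85.4) rested on 45 and 2 UMIs. With called doublets kept, 9 of 10 genes were at least 2-fold higher (22.2% of all genes), and Cd68 was at 1.84. In macrophage clusters, without the gate, 8 of 10 were (22.8% of all genes), and with TMM factors, which scale on the bulk of the genes, 8 of 10 were, Cd68 and Ctsz falling under 2-fold. TMM factors shift every log2 ratio of this comparison by −0.187. Macrophage markers in the clusters summed to 9178 CPM in AS and 4386 CPM in the library labelled Healthy, and the part of this difference was not tested.

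Markers of other cell types also moved between these macrophage sets. In AS macrophages the summed smooth muscle markers were at 1538 CPM, with 9 of 10 detected, against 345 CPM (6 of 10) in the macrophages labelled Healthy. Adipocyte markers were at 961 CPM (7 of 10) against 28.7 CPM (1 of 10), endothelial markers at 487 CPM (10 of 10) against 43.1 CPM (3 of 10), and fibroblast markers at 1448 CPM (10 of 10) against 1897 CPM (8 of 10). Their part in the AS ratios was not tested.

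In all cells not gated as macrophages, 4 of 10 genes were at least 2-fold higher in AS (11.2% of all genes). Of these cells, 1970 of 2094 in AS and 11055 of 11095 in the library labelled Healthy also lay outside the macrophage clusters. The 4 genes were Trem2 at 33.7-fold (22.2 to 52.7), Gpnmb at 3.53-fold, Ctsb at 2.82-fold and Cd68 at 2.55-fold. The remaining 6 had ratios from 1.23 for Ctss to 1.97 for Ctsd. Macrophage markers summed to 375 CPM in these AS cells and 60.4 CPM in those labelled Healthy, and their part in the ratios was not tested. The mix of cells differed too. B cells made up 27.4% of the library labelled Healthy and T/NK cells 17.5%, against 0.509% each in AS. Adipocyte-marker cells made up 0.225% against 17.0% in AS, and neutrophils 0.108% against 5.09%. B cells labelled Healthy had 49.4 CPM of Ctsb and 56.3 CPM of Ctsd, the lowest among classes of at least 20 cells. The part of this mix was not tested.

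The second comparison asked how macrophages of mice given MTZ from week 13 differed from AS macrophages. Gpnmb, Ctsk and Ctsl were at least 2-fold lower in MTZ-treated macrophages, 3 of 10 against 10.7% of 4875 genes, and none was at least 2-fold higher (11.7% of all genes). The median log2 ratio of the 10 genes was −0.69 against −0.03 over all genes. Ctsk was at 0.0360 times its AS level (0.0129 to 0.0817), Gpnmb at 0.373 (0.233 to 0.593) and Ctsl at 0.460 (0.375 to 0.565). Next came Ctsd at 0.520 (0.437 to 0.620), Ctsb at 0.569 (0.519 to 0.624) and Ctss at 0.675 (0.599 to 0.763). Trem2, at 0.812 (0.666 to 0.992), and Cd68, at 0.807, were nearer to AS, Ctsz was level at 1.03, and Fabp5 was at 1.65 (1.17 to 2.36). With looser limits on cells Fabp5 was at 0.354, on the other side. Keeping called doublets left the same 3 genes lower by 2-fold (10.9% of all genes) and none higher (10.8%), and in macrophage clusters Ctsd joined them (14.7% of all genes lower, 9.29% higher). Without the 1 macrophage of each library with most UMIs of the 10 genes, Gpnmb, Ctsd, Ctsk and Ctsl were lower and Fabp5 higher by 2-fold.

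Other cell types' markers were also lower in the MTZ-treated macrophages. Adipocyte markers summed to 6.62 CPM (2 of 10 detected) against 961 CPM in AS (7 of 10), smooth muscle markers to 437 CPM (8 of 10) against 1538 CPM (9 of 10), fibroblast markers to 423 CPM against 1448 CPM (10 of 10 in both) and endothelial markers to 99.3 CPM (8 of 10) against 487 CPM (10 of 10). Their part in the ratios was not tested.

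In the other cells of these libraries a different trio was at least 2-fold lower in MTZ-treated: Trem2 at 0.258, Ctss at 0.280 and Cd68 at 0.468 (7.15% of all genes). Macrophage markers there summed to 191 CPM in MTZ-treated against 375 CPM in AS, and their part in these ratios was not tested. Ctsk was at 1.34 and Fabp5 at 0.905 in these cells.

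The third comparison set MTZ-preventive macrophages against AS, with called doublets kept, 71 against 68 cells. Gpnmb was at least 2-fold higher (13.5% of all genes), at 2.69 (1.95 to 3.78), although 209 of its 210 UMIs lay in 2 called doublets and its thinned share of cells was 2.82% against 14.7% in AS. Ctsk was at least 2-fold lower (9.86% of all genes), at 0.0561 (0.0235 to 0.115). The other 8 lay within 2-fold, from 0.564 (0.365 to 0.870) for Fabp5 and 0.608 for Ctsl to 1.18 for Cd68. Trem2 was at 0.748 (0.608 to 0.921) and Ctsb at 0.780. Between these 2 sets the summed smooth muscle markers went from 1486 CPM in AS to 626 CPM (9 and 8 of 10 detected), fibroblast markers from 1365 to 437 (10 and 9), endothelial markers from 525 to 171 (10 and 10), adipocyte markers from 918 to 415 (7 and 8), T/NK markers from 133 to 575 (8 and 8) and monocyte markers from 127 to 746 (6 and 8 of 8). Their part in the ratios was not tested. The counts differed where called doublets were removed. With the same gate and 15 against 66 cells, under the minimum of 20, 6 of 10 genes were at least 2-fold lower (17.2% of all genes) and none higher (12.5%). Under 2 other choices of cells, also with called doublets removed, 9 of 10 were lower with no limit on other classes' markers (45 against 144 cells, 16.3% of all genes lower and 13.1% higher), and 8 of 10 in macrophage clusters (128 against 190 cells, 15.7% of all genes). Gpnmb was on the lower side in both. In the clusters, macrophage markers summed to 1531 CPM in MTZ-preventive against 9178 CPM in AS. T/NK markers were at 1047 against 307 CPM and dendritic cell markers at 944 against 55.5 CPM. Fibroblast markers were at 995 against 2482 CPM and smooth muscle markers at 1122 against 2639 CPM. Their part in the cluster ratios was not tested. In the other cells, Trem2 at 0.0402, Ctss at 0.272 and Cd68 at 0.341 were at least 2-fold lower (6.21% of all genes) and none was higher (10.4%), and macrophage markers summed to 96.3 CPM against 375 CPM in AS.

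**Figure D4:**
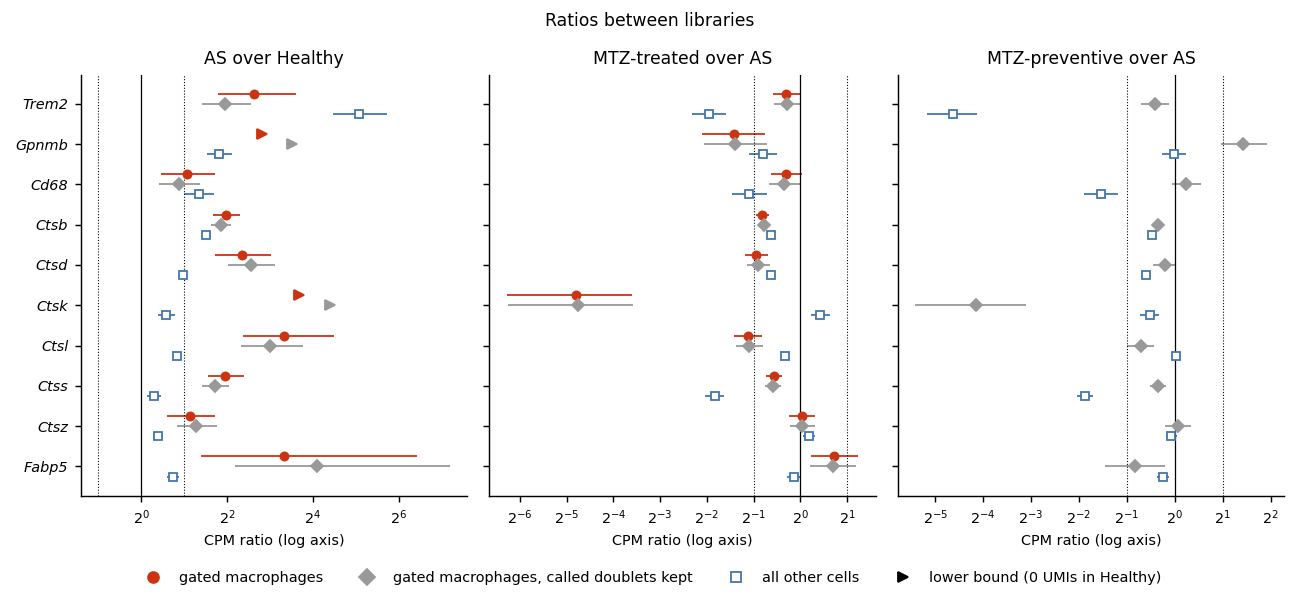
CPM ratio of each gene on a log axis for AS over the library labelled Healthy, MTZ-treated over AS and MTZ-preventive over AS. Red points are gated macrophages, grey diamonds macrophages with called doublets kept, blue squares all other cells, right-pointing triangles lower bounds and dotted lines 2-fold, and the third panel has no red points. All 10 macrophage ratios in the first panel exceed 2, and Ctsk is the lowest macrophage ratio in the other panels.

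Over all cells of a library, fewer macrophages and less RNA per macrophage cannot be told apart. The share of lymphocytes differed as well. B cells were 27.4, 0.509, 1.10 and 8.09% of the 4 libraries in the same order, and T/NK cells 17.5, 0.509, 2.66 and 6.71%. Leaving both out moved 18 log2 ratios past their intervals and left 52 within, ratios of macrophages over other cells included. Adipocyte-marker cells were 0.225, 17.0, 0.294 and 8.46% of the libraries in the same order, and neutrophils 0.108, 5.09, 0.0589 and 0.0423%. The part of these 2 classes was not tested. Over all cells, 6 of 10 genes were at least 2-fold higher in AS than in the library labelled Healthy (11.1% of all genes): Trem2 (53.2-fold), Cd68 (5.27-fold), Gpnmb (4.53-fold), Ctsb (3.71-fold), Ctss (2.62-fold) and Ctsd (2.28-fold). In MTZ-treated 4 genes were at least 2-fold lower than in AS (7.1% of all genes), Ctss at 0.313, Trem2 at 0.343, Cd68 at 0.433 and Gpnmb at 0.484. In MTZ-preventive 3 were (6.09% of all genes), Trem2 at 0.0250, Ctss at 0.131 and Cd68 at 0.159. These sums leave out called doublets, among them 56 gated macrophages of MTZ-preventive and 2 of AS. Those 56 cells held 193 UMIs of Trem2, 607 of Ctss and 244 of Cd68. All kept MTZ-preventive cells together held 63, 977 and 305. Those 3 genes were also the ones with the highest ratios of macrophages over other cells in AS.

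A few cells carried much of the signal of the rarer transcripts. In AS, Ctsk came from 5 of 66 macrophages, and 89.5% of its 86 UMIs from 3 of them. One AS macrophage of 15218 UMIs held 66.7% of the Fabp5 UMIs, and without it the level was 107 CPM. One MTZ-treated macrophage of 20318 UMIs held 91.2% of the 34 Gpnmb UMIs, and without it the level was 10.6 CPM. The Fabp5 excess of MTZ-treated rested on few cells as well, since 84.7% of its 144 UMIs lay in 3 of 100 macrophages. As a mean over cells, Fabp5 was at 166 CPM in MTZ-treated and 153 CPM in AS. Trem2 was spread more evenly, over 46 of 66 AS macrophages and 65 of 100 MTZ-treated ones, as were Ctsb (64 of 66 in AS) and Ctss (62 of 66 in AS). In the macrophages labelled Healthy, the 12 Trem2 UMIs came from 4 of 26 cells.

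**Figure D5:**
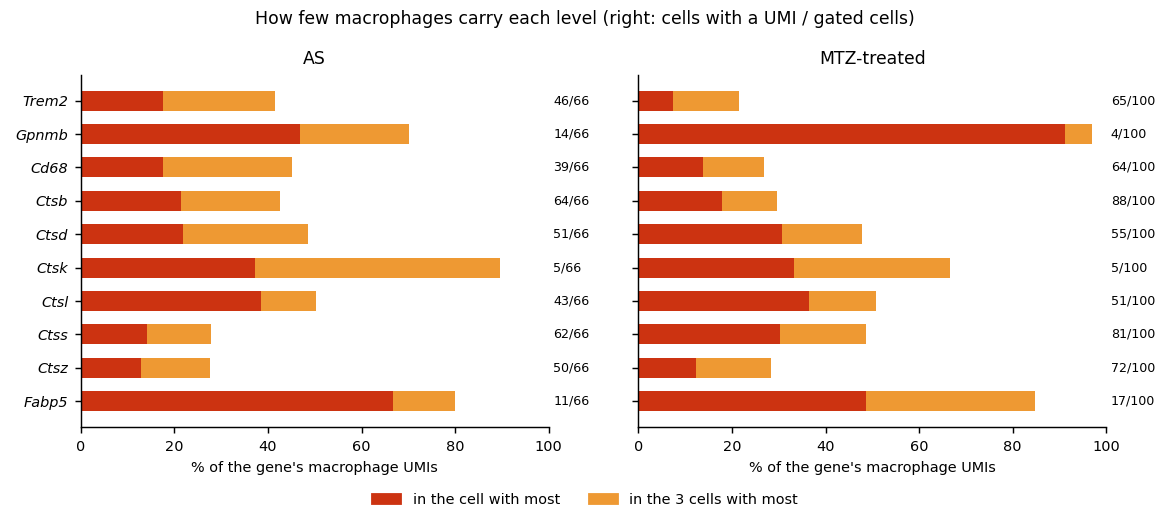
Percent of each gene's macrophage UMIs held by the cell with most of them (red) and by the 3 cells with most (whole bar) in AS and MTZ-treated, with the cells that hold a UMI and the gated cells at the right. Ctsk in AS and Gpnmb and Fabp5 in MTZ-treated have whole bars of over 80%. Trem2 and Ctsz in MTZ-treated and Ctsz and Ctss in AS have whole bars of under 30%.

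Other genes of the pathway were counted from fixed lists. Of 24 lysosomal genes with enough UMIs, 12 were at least 2-fold higher in AS macrophages than in those labelled Healthy and 1 was lower, with a median log2 ratio of 1.003, where 24.1% of all genes were higher and 14.3% lower. With called doublets kept the count was 6 of 27, the same share as over all genes (22.2%), and the median 0.52. Hexa, a lysosomal hydrolase, was 3.12-fold higher (1.77 to 5.92), and Atp6v1b2, of the proton pump, 3.42-fold (1.03 to 17.8). The lower one was Ctsc, the cathepsin that activates granule proteases, at 0.369 (0.206 to 0.657). In MTZ-treated against AS macrophages no lysosomal gene of 28 was at least 2-fold higher and 1 was lower (11.7% and 10.7% of all genes), with a median log2 ratio of −0.28. Ctsc, at 1.91 (1.21 to 3.14), and Psap, the saposin precursor, at 1.34, were among the highest, and Lgmn, the asparagine-specific protease legumain, at 0.620, was among the lowest. Keeping called doublets, 1 of 30 was higher in MTZ-preventive against AS, Ctsc at 2.87 (1.87 to 4.57), and none was lower (13.5% and 9.86% of all genes). This depended on the called doublets. With them removed, 10 of 25 were lower and 1 higher by the gate, from 15 MTZ-preventive cells (17.2% and 12.5% of all genes). In macrophage clusters 14 of 30 were lower and none higher (15.7% and 13.7% of all genes).

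The list of foam cell and lipid genes gave 10 of 12 higher in AS macrophages than in those labelled Healthy and none lower (24.1% and 14.3% of all genes), with a median log2 ratio of 2.04. Spp1, the secreted phosphoprotein osteopontin, was at 20730 CPM in AS and had no UMI in the macrophages labelled Healthy, at least 481-fold higher. Mmp12, the macrophage elastase, was at 487 CPM against none, at least 11.3-fold higher, and Fabp4, the adipocyte fatty acid carrier, was 44.4-fold higher (15.1 to 217). The list was higher outside the gate as well. In all other cells 12 of 17 were higher in AS and none lower (11.2% and 16.3% of all genes), with a median log2 ratio of 2.01. Adipocyte-marker cells were 17.0% of AS and 0.225% of the library labelled Healthy. Adipocyte markers in the other cells summed to 15091 CPM and 244 CPM, and their part was not tested. In MTZ-treated against AS macrophages the list split, with 4 of 15 higher, 3 lower (11.7% and 10.7% of all genes) and a median log2 ratio of −0.07. Mmp12 was 4.44-fold higher (3.499 to 5.71) and the lysosomal acid phosphatase Acp5 2.84-fold, while Fabp4 was at 0.111 (0.0830 to 0.145), Spp1 at 0.211 (0.198 to 0.225) and the scavenger receptor Cd36 at 0.328 (0.215 to 0.495). The higher Mmp12 level came from a smaller share of cells, since 12 of 100 MTZ-treated macrophages had a UMI of it, against 27 of 66 in AS. Adipocyte markers (961 to 6.62 CPM) and endothelial markers (487 to 99.3 CPM) were lower along with Fabp4 and Cd36, and their part was not tested. In all other cells of these 2 libraries 11 of 17 list genes were lower in MTZ-treated and none higher (7.15% and 12.2% of all genes). The median log2 ratio there was −1.23. Adipocyte-marker cells were 0.294% of MTZ-treated, and adipocyte markers in its other cells summed to 495 CPM against 15091 CPM in AS. Their part was not tested. In MTZ-preventive, with called doublets kept, 3 of 16 were higher and 5 lower than in AS (13.5% and 9.86% of all genes), with a median log2 ratio of −0.37 and Spp1 at 0.256 (0.240 to 0.273). With called doublets removed, 9 of 12 were lower by the gate and 10 of 15 in macrophage clusters (17.2% and 15.7% of all genes), and none was higher (12.5% and 13.7%).

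The signalling partners of Trem2 stayed within 2-fold, but for 1, except in MTZ-preventive with called doublets removed. Of 5 signalling genes none was at least 2-fold higher in AS macrophages than in those labelled Healthy (24.1% of all genes). Of the same 5, 1 was lower (14.3% of all genes), Inpp5d at 0.401 from 9 and 10 UMIs. Tyrobp, the adaptor through which TREM2 signals, was at 2839 CPM in AS and 2759 CPM in the library labelled Healthy, a ratio of 1.03. None of the 5 passed 2-fold in MTZ-treated against AS (11.7% of all genes higher, 10.7% lower), where Tyrobp was at 1.38. Nor did any in MTZ-preventive with called doublets kept (13.5% of all genes higher, 9.86% lower). With called doublets removed, 2 of 4 were higher by the gate and 1 of 5 in macrophage clusters (12.5% and 13.7% of all genes), and none was lower. The cathepsin inhibitors Cst3, at 0.811, and Cstb, at 1.86, were within 2-fold in AS against the library labelled Healthy and in both MTZ comparisons. Of the transcription factors, Tfeb was at 1.49 and Mitf at 1.78 in AS macrophages, and none of 2 passed 2-fold. None of 3 did in MTZ-treated against AS. In MTZ-preventive with called doublets kept 1 of 3 was higher (13.5% of all genes), Tfe3 at 3.82 from 19 and 3 UMIs. In macrophage clusters, with called doublets removed, 2 of 3 were lower (15.7% of all genes) and none higher.

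Genes of resident arterial macrophages were mostly lower in AS. In AS macrophages 4 of 5 were at least 2-fold lower than in those labelled Healthy, against 14.3% of all genes: Pf4 at 0.157 (0.0945 to 0.254), F13a1 at 0.0212 from 1 and 21 UMIs, and Cbr2 and the haemoglobin scavenger receptor Cd163 with no UMI against 402 and 230 CPM. The folate receptor Folr2 was higher at 2.06 (1.12 to 4.09), but at 0.998 with called doublets kept. In MTZ-treated macrophages Pf4 was 4.58-fold (2.998 to 7.31) above AS and Cbr2 was at 294 CPM against none. Keeping called doublets, 6 of 7 such genes were at least 2-fold higher in MTZ-preventive than in AS (13.5% of all genes), among them Pf4 at 3.54. This too depended on the called doublets. With them removed, 2 such genes had enough UMIs by the gate, 1 lower and none higher (17.2% and 12.5% of all genes). In macrophage clusters 1 of 3 was higher and 2 were lower (13.7% and 15.7% of all genes).

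Macrophages with an Mmp12 UMI were set beside those with a resident gene UMI and none of Mmp12. No library had 20 gated cells on both sides, so the values are a description. In MTZ-treated, 12 macrophages with Mmp12 had 1077 CPM of Trem2, 367 of Gpnmb, 5350 of Ctsb and 1386 of Fabp5, and 45 resident-gene macrophages had 811, 7.88, 2868 and 126 CPM. The Mmp12 cells were deeper, with a median of 6154.5 against 1996 UMIs. They held 32 Gpnmb UMIs, of which 31 lay in the MTZ-treated macrophage of 20318 UMIs named above. That cell also held 70 of the 121 Fabp5 UMIs of the Mmp12 cells. The Gpnmb contrast in MTZ-treated therefore rested on that cell, and the Fabp5 contrast in large part. In AS the 27 Mmp12 cells and 13 resident-gene cells were closer, with 1155 against 1409 CPM of Trem2, 6483 against 5817 of Ctsb and 435 against 235 of Gpnmb.

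Genes with a like pattern were sought over 29 sums of 1 class in 1 library, by Pearson's r of log2(CPM + 1). The sums share libraries, so r is a description. Trem2 was nearest to C1qc (0.954), Mpeg1 (0.948) and Ms4a7 (0.947), of which C1qc and Ms4a7 are markers of the gate. Ctsb and Ctsd were nearest to each other (0.897), and Cd68 was near Ctss (0.838) and Trem2 (0.833) among the 10 genes. Ctss followed Tnfaip8l2 (0.893) and was at −0.24 with Ctsl and −0.31 with Fabp5. Ctsz was nearest to the lysosomal protease Lgmn (0.882), Ctsk to Pcolce2 (0.823) and Gpnmb to Rab32 (0.882).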

How the data were processed

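Aortic cells were profiled with 10x 5′ libraries, and per the matrix headers and the submitters' processing notes the reads were counted with Cell Ranger 5.0.0 (STAR, mm10). The authors deposited raw counts of UMIs per gene and barcode, for 6908 to 23963 barcodes per library. The B and T cell receptor libraries were not used.

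Counts of rows with 1 symbol were summed. Cells were kept with over 200 genes, over 1000 UMIs, a log10 genes per log10 UMIs above 0.7, under 10% mitochondrial and under 5% hemoglobin UMIs. Doublets were called from 2 simulated doublets per cell, as the top 0.8% per 1000 cells. Macrophages were gated by at least 3 of 10 markers, and by more markers than for any other of 10 classes. UMIs were summed per library and class and given as CPM, with exact 95% Poisson, Clopper-Pearson or conditional binomial intervals. With 1 library per group no test was run, and a call is a ratio of at least 2 with at least 10 UMIs over both sums. Between macrophage sets 20 cells per side were asked for as well, but not for macrophages over other cells. A sum of 0 was set to 3 UMIs to give a bound, which is not a 95% limit. Clusters (Leiden, resolution 1) served as an alternative, as did TMM factors (edgeR 4.0.16). The interval and fold steps were tested on simulated data.

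The genes and lists were chosen with earlier results of these data known. Named beside the 10 genes are Apoe, the 3 highest and 3 lowest list genes per comparison among those with at least 20 UMIs, all genes of lists of at most 8, and the 3 nearest genes by r. Of a list's named genes only some are printed, and results for some list genes are not reported here. Promoters came from RefSeq (GRCm38.p6). Scripts used Python 3.11.15 and R 4.3.3.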

Additional observations from a re-analysis of the deposited data

Results flagged for a closer look

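For 2 genes the MTZ-treated to AS ratio went opposite ways in macrophages and in other cells. Ctsk was at 0.036 times its AS level in gated macrophages (0.0129 to 0.0817) and at 1.34 times in all other cells (1.17 to 1.54). Fabp5 was at 1.65 times its AS level in gated macrophages (1.17 to 2.36) and at 0.905 times in all other cells (0.825 to 0.994). With looser limits on cells Fabp5 was at 0.354 in macrophages, on the same side as in the other cells. With 1 library per group the difference was not tested. In AS 5 of 66 macrophages held all Ctsk UMIs, and in MTZ-treated 3 of 100 macrophages held 84.7% of the Fabp5 UMIs.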

How the results depend on the processing

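No paired analysis was possible because each group has 1 library. All 10 genes higher in AS macrophages became 7 to 10 over the alternatives, lowest with looser limits on cells. The 3 genes 2-fold apart in MTZ-treated against AS macrophages became 6 with looser limits, 5 as a mean over cells, 6 at 1.5-fold and 5 without the cell with most UMIs of the 10 genes. Among the 6 with looser limits was Fabp5, which turned from a log2 ratio of 0.72 to one of −1.50. The 2 in MTZ-preventive against AS macrophages, with called doublets kept, became 9 with no limit on other classes' markers and 8 in clusters, both with called doublets removed. Other gates left MTZ-preventive under 20 cells and gave no value. Over all cells at 1.5-fold, 10 genes in place of 6 were apart in AS against the library labelled Healthy, and 6 in place of 3 in MTZ-preventive against AS. Leaving out 1 library, 5 to 6 genes had macrophage levels above all other-cell levels. The macrophage share of AS, 3.06%, became 6.67% with no limit on other classes' markers, 8.80% in clusters and 2.23% with looser limits. That of the library labelled Healthy became 0.602% and 0.566% by the first 2 of these, that of MTZ-treated 3.33% by each of them and 0.742% with looser limits, and that of MTZ-preventive 0.317%, 0.902% and, with called doublets kept, 0.435%. Directions of macrophages over other cells reversed (log2 ratios) for Ctsd in MTZ-preventive clusters (−0.24), Ctsl in MTZ-preventive with called doublets kept (0.21), Fabp5 in the library labelled Healthy in clusters (0.35) and with looser limits (1.29), and in MTZ-treated Ctsk with looser limits (0.12), Fabp5 with looser limits (−0.32) and as a mean over cells (−0.027), and Gpnmb without that 1 cell (−1.05). Gpnmb in MTZ-preventive against AS reversed with no limit on other classes' markers (−4.46) and in clusters (−5.11), where Cd68 also turned (−1.29 and −1.56), as did Ctsz by the first (−1.04). Ctsk and Gpnmb of MTZ-preventive turned above other cells with looser limits (2.84 and 1.45), and Gpnmb with called doublets kept (4.29). Without that 1 cell no Gpnmb UMI was left in MTZ-preventive macrophages. The log2 ratio of 1.49 there is an upper bound at 3 UMIs and shows no direction. The cause was not tested. Keeping called doublets, leaving out that 1 cell and taking other cells outside the clusters were chosen after seeing the data. The macrophage sums of 31196 to 302258 UMIs limit the precision, and a level under 3 UMIs cannot be told from 0.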
